A study of Trichoplusia ni and Spodoptera exigua with 20 samples.

Results

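Sulforaphane (SFN) and trichostatin A (TSA) were compared directly in fat bodies of larvae of the cabbage looper *T*. *ni*, with no control library in the contrast. The comparison used the 4 SFN and the 4 TSA libraries, which are 8 of the 11 *T*. *ni* libraries and of the 20 libraries in the series, and all genes whose mean read count scaled to library size (CPM) over these 8 libraries exceeded 10. This kept 4435 of the 14384 genes in the table. The other libraries of the series came from *T*. *ni* control larvae and from *S*. *exigua*.

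All larvae were wild type (WT) and were raised singly on artificial diet (AD) until about Day 10. SFN at 70 mM or TSA at 330 µM in ethanol was layered on the diet and the solvent was allowed to evaporate, and the 3 control libraries came from larvae given the EtOH carrier alone. Each library pooled the fat bodies of 3 to 5 larvae, so that values between single larvae cannot be seen. The doses of SFN and TSA differ, and each was given at 1 dose, so that the contrast is between these diets and not between the compounds at a matched dose.

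Histone deacetylases (HDACs) remove acetyl groups from histones and other proteins, and their inhibition leaves chromatin more acetylated. SFN is an isothiocyanate released from the glucosinolates of cruciferous plants, on which *T*. *ni* feeds, and TSA is a hydroxamic acid made by *Streptomyces* that binds the zinc ion in the active site of many HDACs. The fat body stores lipid, glycogen and protein, makes most proteins of the haemolymph and carries out much of the detoxification in an insect, so that a few storage and transport proteins often make up much of its RNA. The deposited table names genes by identifiers alone, and 0 of them matched the names at hand. Pathways, HDAC genes, storage proteins and markers of fat body or of other tissues could therefore not be looked up, and genes are described here by their levels.

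The libraries held 17184377 to 23518486 counts under SFN and 17625967 to 21176033 under TSA, and a CPM of 10 stood for 172 to 235 counts. Genes at 1 CPM or more numbered 8188 ± 276 per library under SFN and 7752 ± 288 under TSA (SD, n = 4 each), a difference that did not pass a two-sided exact permutation test (p = 0.0857, adjusted p = 0.429 over 5 measures of the libraries). The 10 most abundant genes of a library took between 25.6% (SFN replicate 3) and 50.5% (SFN replicate 1) of its counts. Nothing in the labels says whether larvae of different libraries came from separate cohorts, so p-values measure the spread between these libraries only. In such bulk tissue, fewer cells of a type and less RNA per cell cannot be told apart.

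No gene was called different between SFN and TSA. By edgeR (quasi-likelihood F-test, Benjamini-Hochberg adjusted p under 0.05), 0 of 4435 genes were called (0%), and the lowest adjusted p was 0.841, shared by 7 genes. At an unadjusted p under 0.05 there were 175 genes, of which 82 (1.85% of those tested) lay higher under SFN and 93 (2.1%) lay higher under TSA. This unadjusted count was 108 without SFN replicate 1, 101 without TSA replicate 1, 268 without SFN replicate 4 and 269 without TSA replicate 4, each with 0 genes called. The library codes in the labels fall into a pair of series, of which 1 holds replicates 1 to 3 of each inhibitor and the other replicate 4. Within the former 0 genes were called and 265 had an unadjusted p under 0.05, and the latter, with 1 library of each inhibitor, allowed no test. Other tests on all 8 libraries did make calls, with 14 genes from edgeR's likelihood ratio test and 46 from DESeq2.

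Fitted differences between the inhibitors were small for most genes and large for a few. The median log2 fold change (SFN minus TSA) was -0.0013, the central 90% of genes lay between -0.73 and 0.79, and the median absolute value was 0.21. A difference of 2-fold or more was fitted for 157 genes higher under SFN and 116 higher under TSA (6.16% of genes together), and one of 16-fold or more for 13 and 5 genes. Without SFN replicate 4 the genes at 2-fold or more numbered 421, and without TSA replicate 4 they numbered 418. By mean log2 CPM over the 8 libraries, most genes past 2-fold in the full fit were of low level. In the lowest quartile on this scale 13.0% were past 2-fold, against 4.24%, 3.25% and 4.15% in the next quartiles up. A gene near 0 in some libraries has a low mean on this scale, so that its own spread helps to place it there. By mean CPM, large fits were not confined to low levels, as in Tni22G04710 (266 CPM, log2 fold change 5.87). The median standard error was 0.31, and the 95% interval reached a median of 0.77 to each side, or 1.70-fold. It lay wholly within 2-fold either way for 2139 of 4434 genes (48.2%), whereas for 275 genes (6.20%) it extended more than 4-fold to each side. It lay wholly past 2-fold on 1 side for 12 genes, and for the rest it took in a 2-fold difference in at least 1 direction.

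**Figure D1:**
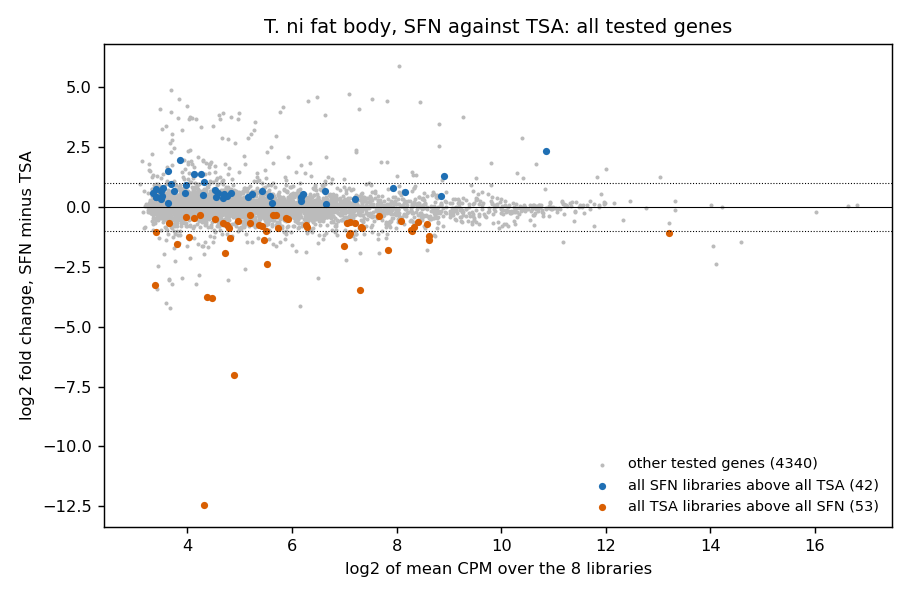
Fitted log2 fold change (SFN minus TSA, vertical) against the log2 of mean CPM over the 8 libraries (horizontal) for the 4435 tested genes of *T*. *ni*. Blue points are the 42 genes in which all SFN libraries lay above all TSA libraries, orange points the 53 with the opposite order, and dotted lines mark 2-fold. Most genes lie near 0. The widest differences occur over a range of levels, as in Tni13G00050 (mean 20.0 CPM) and Tni22G04710 (mean 266 CPM).

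On average, libraries of different inhibitors were no further apart than libraries of the same inhibitor. Distance was taken as the median absolute difference in log2 CPM over the tested genes. It averaged 0.490 between inhibitors (0.358 to 0.630), 0.583 within SFN (0.391 to 0.831) and 0.414 within TSA (0.306 to 0.554). Distance between minus distance within came to -0.0088 (two-sided exact permutation test, p = 0.914; the smallest p the 70 labelings allow is 0.0571). Within replicates 1 to 3, which share a series of library codes, it came to 0.0141 (exact permutation p = 0.8). With so few libraries neither of these distance tests could reach a p under 0.05, whatever the values. Of the total variance in log2 CPM, 13.6% lay between the inhibitors (exact permutation p = 0.914). That test has the same smallest possible p of 0.0571.

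The widest distance in the whole set lay inside SFN. SFN replicates 1 and 3 were 0.831 apart, and the library nearest to SFN replicate 1 was TSA replicate 1 (0.358). SFN replicate 2 was also nearest to TSA replicate 1 (0.386), SFN replicate 4 to TSA replicate 2 (0.39) and TSA replicate 4 to SFN replicate 2 (0.408). SFN replicate 3 had SFN replicate 4 as its nearest (0.391), and TSA replicates 1, 2 and 3 had one another. Thus 4 of the 8 libraries were nearest to a library of their own inhibitor, where each had fewer libraries of its own inhibitor to be near than of the other.

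**Figure D2:**
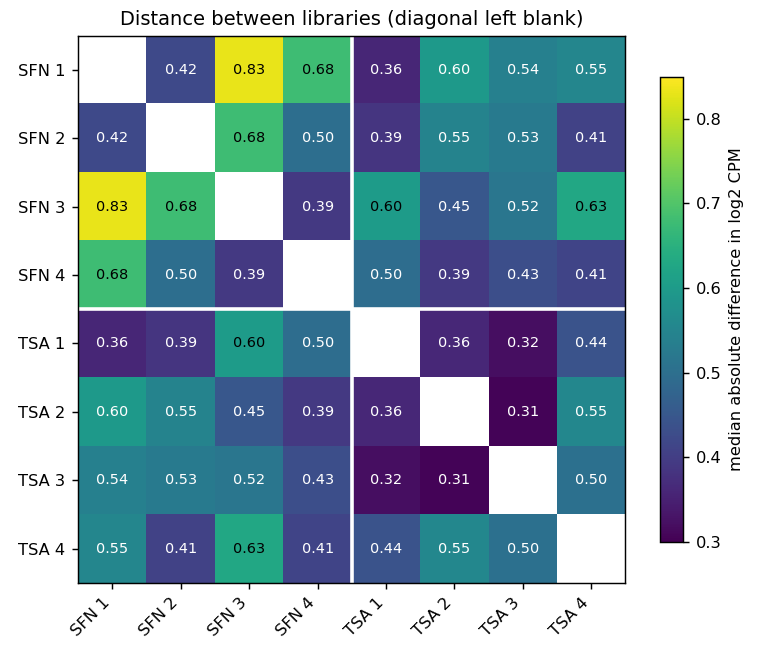
Median absolute difference in log2 CPM over 4435 genes for each pair of the 8 libraries, from dark (close) to yellow (far), with white lines parting SFN from TSA and the diagonal left blank. The yellow cells of SFN replicate 1 with SFN replicate 3 (0.83) stand out, as do the dark cells among TSA replicates 1, 2 and 3 (0.31 to 0.36).

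Spread was wider among SFN libraries, by an amount that did not pass the exact test. Each library's distance from the mean of the other libraries of its inhibitor was 0.596, 0.378, 0.581 and 0.380 for SFN replicates 1 to 4 and 0.285, 0.338, 0.276 and 0.455 for TSA replicates 1 to 4. SFN replicates 1 and 3 stood further out than any TSA library, and the ranges overlapped. The means were 0.484 ± 0.121 and 0.339 ± 0.0824 (SD, n = 4 each; two-sided exact permutation p = 0.114, smallest possible 0.0286). The difference of 0.145 fell to 0.0868 without TSA replicate 1 and 0.0877 without TSA replicate 3, and rose to 0.270 within replicates 1 to 3 and 0.252 when libraries were scaled by total count only. The per-gene SD of log2 CPM had a median of 0.510 under SFN and 0.370 under TSA, and it was larger under SFN for 2896 genes (65.3%). The difference between the inhibitor means was smaller than the pooled SD for 82.2% of genes.

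SFN replicates 1 and 2 were most often the pair at an extreme of the 8 libraries, ahead of SFN replicates 3 and 4. The former were the highest pair of the 8 libraries for 498 genes (11.2%) and the lowest pair for 481 (10.8%), more than any other of the 28 pairs. Next came SFN replicates 3 and 4, the highest pair for 437 genes and the lowest for 469. Pairs made of 1 library of each inhibitor were also frequent, with SFN replicate 3 and TSA replicate 2 the highest for 359 genes and SFN replicate 1 and TSA replicate 1 for 326. By contrast, SFN replicates 1 and 3 were the highest pair for only 57 genes. These orders share the same libraries and are given as a description. Whether both SFN pairs lay on opposite sides in the same genes was not counted. The first principal component of log2 CPM (39.9% of the variance) placed the SFN libraries otherwise. SFN replicate 1 stood at -48.5 on it, and SFN replicates 2, 3 and 4 at 25.5, 33.9 and 31.7.

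The single library at an extreme was most often SFN replicate 3 or SFN replicate 1. SFN replicate 3 was the highest of 8 for 948 genes (21.4%) and the lowest for 902 (20.3%), and SFN replicate 1 for 889 and 876. TSA replicate 1 was at an extreme least often, the highest for 268 genes (6.04%) and the lowest for 269. Genes at least 4-fold above every TSA library numbered 50 in SFN replicate 1, 22 in SFN replicate 2, 11 in SFN replicate 3 and 5 in SFN replicate 4, and 20 of them were shared by SFN replicates 1 and 2. Genes at least 4-fold below every TSA library numbered 8, 30, 57 and 7. A single gene lay at least 4-fold below every TSA library in all 4 SFN libraries.

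Genes in which the libraries of the inhibitors did not overlap were few. All SFN libraries lay above all TSA libraries in 42 genes (0.947% of those tested), and all TSA libraries lay above all SFN libraries in 53 genes (1.2%). The difference in mean log2 CPM had a median of 0.56 in the former and of -0.87 in the latter, and reached 2-fold or more in 7 and 21 genes. The gap between the groups, from the lowest library of the higher inhibitor to the highest library of the other, had a median of 0.056 log2 units where SFN was higher and of 0.175 where TSA was higher. It reached 1 log2 unit in 4 genes, all higher under TSA. Of the 95 genes, edgeR's quasi-likelihood test called 0, its likelihood ratio test called 4, all higher under TSA, and DESeq2 called 22, of which 16 were higher under TSA. Over all 4435 tested genes the latter tests called 14 and 46. The 95 genes were picked from the same 8 libraries, so that these calls are no separate evidence.

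The gene with the lowest p had no count in any SFN library. Tni13G00050 had 0 counts in each of the 4 SFN libraries, and stood at 67.6, 24.2, 67.8 and 0.309 CPM in TSA replicates 1 to 4 (1095, 461, 1447 and 5 counts). TSA replicate 4 was close to 0 while the other TSA libraries were well above it, and the groups did not overlap. Pooled over libraries, the TSA level of 41.3 CPM was at least 1127-fold higher than the SFN level that 3 counts over the 4 SFN libraries would give. The unadjusted p was 0.000399 in edgeR's quasi-likelihood test (adjusted p = 0.841), whereas the adjusted p was 9.98e-30 in the likelihood ratio test and 0.000343 in DESeq2. The control libraries held 0.725, 8.57 and 0 CPM of Tni13G00050, so that 1 control was also at 0. Of the 28 genes named by rule, the likelihood ratio test called 9 and DESeq2 called 18, beside 14 and 46 of all 4435 tested genes. Much of the rule picks genes by low p or large difference in these libraries, so that these counts are no separate evidence.

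Tni08G04760 was near 0 under SFN and spread widely under TSA. It stood at 0.0775, 0.155, 0.282 and 0.202 CPM in SFN replicates 1 to 4, which is 1 to 7 counts, and at 27.6, 12.9, 193 and 2.35 CPM in TSA replicates 1 to 4. All TSA libraries were higher, yet they ranged from 38 to 4126 counts. The log2 fold change was -7.0 ± 1.13 (SE; adjusted p = 0.841 in edgeR's quasi-likelihood test, 1.42e-06 in its likelihood ratio test and 4.57e-11 in DESeq2). The controls, at 2.64, 91.9 and 44.2 CPM, lay in the range of TSA and above every SFN library. It was the widest gap between the inhibitors in any tested gene, 2.67 log2 units.

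Tni04G01720 differed less but with little spread. It stood at 11.6, 9.77, 8.69 and 8.86 CPM in SFN replicates 1 to 4 and at 25.6, 24.9, 20.2 and 21.5 CPM in TSA replicates 1 to 4. Both groups were tight and well apart, with means of 9.72 ± 1.31 and 23.1 ± 2.60 CPM (SD, n = 4 each). The log2 fold change was -1.25 ± 0.21 (SE; 95% interval -1.77 to -0.72; edgeR adjusted p = 0.841, and 5.18e-05 in DESeq2). The controls spanned both groups, at 26.7, 7.89 and 13.2 CPM.

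Further genes with higher TSA libraries were less even. Tni10G03920 stood at 10.5, 3.78, 0.724 and 1.5 CPM under SFN and at 34.8, 22.8, 36.3 and 55.5 CPM under TSA (log2 fold change -3.75 ± 0.84, SE). Tni05G00200 stood at 1.55, 3.10, 0.121 and 1.70 CPM under SFN and at 20.5, 6.46, 128 and 16.0 CPM under TSA (-3.81 ± 1.42). In neither did the groups overlap, and TSA replicate 3 was the highest library of the latter by a wide margin. Tni01G01720 stood at 22.6, 12.6, 15.5 and 12.5 CPM under SFN and at 66.3, 31.3, 29.7 and 33.7 CPM under TSA (-1.31 ± 0.23). Its groups did not overlap either, and a control library reached 447 CPM. Tni10G01460 stood at 18.1, 0.103, 0.443 and 2.35 CPM under SFN and at 78.1, 5.09, 4.08 and 10.6 CPM under TSA (-2.96 ± 0.58), where replicate 1 was the highest library of each inhibitor, the groups overlapped, and the unadjusted p of edgeR went from 0.00238 to 0.172 without the replicate block. The adjusted p of these genes in edgeR was 0.841 for Tni01G01720 and 1.00 for the others.

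Of the 42 genes in which every SFN library was above every TSA library, Tni27G01820 was the most abundant. It stood at 5921, 1898, 769 and 4181 CPM in SFN replicates 1 to 4 and at 433, 503, 510 and 518 CPM in TSA replicates 1 to 4. The TSA libraries were nearly equal, the SFN libraries spread over a wide range, and the lowest SFN library was above the highest TSA library. The means were 3192 ± 2308 and 491 ± 39.3 CPM (SD, n = 4 each), and the log2 fold change was 2.34 ± 0.61 (SE; 95% interval 0.84 to 3.84; unadjusted p = 0.0090, adjusted p = 1.00, edgeR). Adjusted p-values ranged from 0.000221 to 1.00 over the alternative fits. The controls stood at 5107, 3.53 and 1100 CPM, and 1 of them was below every treated library.

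Tni29G01070 had the next widest gap in this direction. It stood at 25.1, 44.4, 12.6 and 11.8 CPM in SFN replicates 1 to 4 and at 4.44, 5.30, 4.12 and 8.09 CPM in TSA replicates 1 to 4. Its highest libraries were SFN replicates 1 and 2, and the groups did not overlap (log2 fold change 1.94 ± 0.48, SE; edgeR adjusted p = 1.00). The controls stood far above both, at 239, 276 and 482 CPM.

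Tni01G01850 had the lowest p of the genes higher under SFN, and its groups overlapped. It stood at 8.37, 18.2, 4.51 and 48.0 CPM under SFN and at 0.494, 0.420, 0.141 and 9.27 CPM under TSA. Replicate 4 was the highest library of each inhibitor, and TSA replicate 4 lay above SFN replicates 1 and 3 (log2 fold change 4.08 ± 0.60, SE; edgeR adjusted p = 0.841). Its unadjusted p in edgeR was 0.000574, and 0.0532 without the replicate number as a block in the fit. In Tni04G04250, Tni10G03480 and Tni21G00420 the groups overlapped as well, with log2 fold changes of 1.30 ± 0.22, 1.58 ± 0.30 and 1.39 ± 0.21. Without the block their unadjusted p in edgeR was 0.0569, 0.0950 and 0.0117. In Tni11G02000 they did not, at 18.4, 18.7, 57.6 and 17.9 CPM under SFN and 9.26, 9.30, 16.1 and 5.81 CPM under TSA, where replicate 3 was the highest library of each. Tni09G01000 stood at 25.0, 27.5, 8.65 and 11.6 CPM under SFN and at 7.72, 7.04, 2.62 and 8.28 CPM under TSA, again without overlap, although SFN replicate 3 was barely above TSA replicate 4.

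**Figure D3:**
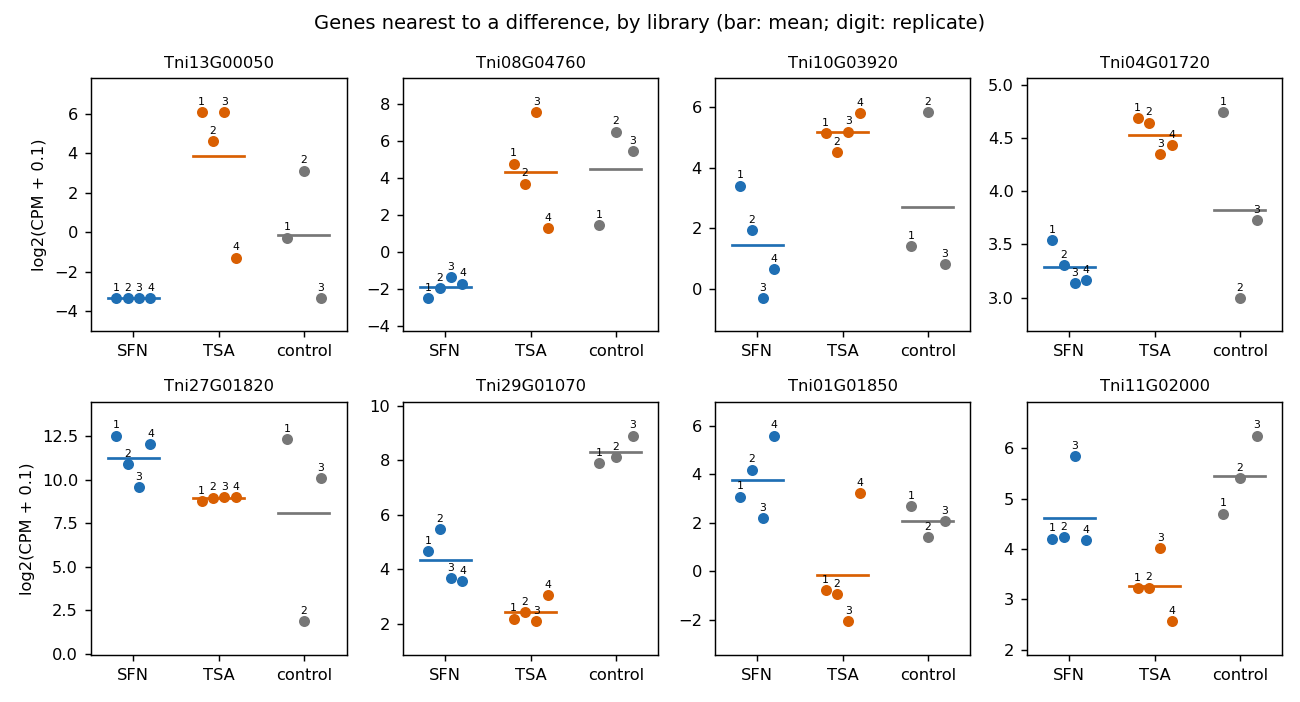
Log2 of CPM plus 0.1 in each SFN, TSA and control library for 8 genes named in the text (points, with the replicate as a digit; bars are group means; each panel has its own vertical range). The inhibitors are well apart in Tni08G04760 and Tni04G01720, whereas in Tni01G01850 TSA replicate 4 (9.27 CPM) lies among the SFN libraries, and the controls fall on either side.

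The most abundant genes did not separate the inhibitors either. The 50 genes with the highest mean level took 51.6% of the counts of the 8 libraries. None was called, and at an unadjusted p under 0.05 there was 1 gene higher under SFN and 2 higher under TSA, beside 1.85% and 2.1% over all tested genes. Their median log2 fold change was 0.06 and the median absolute value 0.17, beside -0.0013 and 0.21 over all tested genes. A 2-fold difference or more was fitted for 3 genes higher under SFN and 5 higher under TSA. Together these were a larger share of the 50 than the 6.16% over all tested genes.

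Tni03G02130 and Tni03G02120, which follow each other in the table, were the most abundant genes. Tni03G02130 stood at 225190, 138950, 47168 and 88538 CPM in SFN replicates 1 to 4 and at 129750, 99136, 94744 and 86266 CPM in TSA replicates 1 to 4. SFN replicate 1 was the highest library and SFN replicate 3 the lowest, with all TSA libraries between them (log2 fold change 0.09 ± 0.40, SE; 95% interval -0.90 to 1.07; -0.16 to 0.43 with 1 library left out). Tni03G02120 had the same highest and lowest libraries, at 176040 and 40103 CPM (0.01 ± 0.42). Tni27G01830, the neighbour of Tni27G01820 in the table, stood at 15136, 5151, 30870 and 27581 CPM under SFN and at 20219, 29328, 9747 and 14139 CPM under TSA, so that its order of libraries was not that of its neighbour (0.00 ± 0.70). Whether neighbouring genes are near-identical copies that share reads was not tested.

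SFN replicate 3 almost lacked some of the most abundant transcripts. Tni23G04610 stood at 19187, 8465, 34.3 and 6336 CPM in SFN replicates 1 to 4 and at 32650, 15442, 27194 and 32563 CPM in TSA replicates 1 to 4. Tni03G02080 stood at 36761, 21999, 67.8 and 10037 CPM under SFN and at 40112, 13968, 41344 and 33178 CPM under TSA, and its neighbour Tni03G02090 at 73.2 CPM in SFN replicate 3 and 4326 to 32545 CPM in the other 7 libraries. Tni03G02140 stood at 1340 CPM in SFN replicate 3 and at 35223 to 141940 CPM elsewhere. With 1 library of 4 so low, the log2 fold changes were wide: -2.37 ± 1.51 (SE) for Tni23G04610, -1.49 ± 1.65 for Tni03G02080 and -0.24 ± 1.29 for Tni03G02140. Control replicate 3 was also the lowest control in each gene of this paragraph, with 1114 CPM of Tni23G04610 and 4229 CPM of Tni03G02080. It held 1665 CPM of Tni03G02090 and 27341 CPM of Tni03G02140.

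One abundant gene, Tni12G03550, did separate the inhibitors and is named because of it. It stood at 6291, 5975, 3856 and 7481 CPM in SFN replicates 1 to 4 and at 18621, 9225, 14955 and 9301 CPM in TSA replicates 1 to 4. All TSA libraries were higher, with a log2 fold change of -1.11 ± 0.39 (SE; 95% interval -2.08 to -0.15; edgeR adjusted p = 1.00). It was the only one of the 50 without overlap, beside 2.14% of all tested genes. Its controls, at 10986, 3548 and 4337 CPM, spanned both groups.

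**Figure D4:**
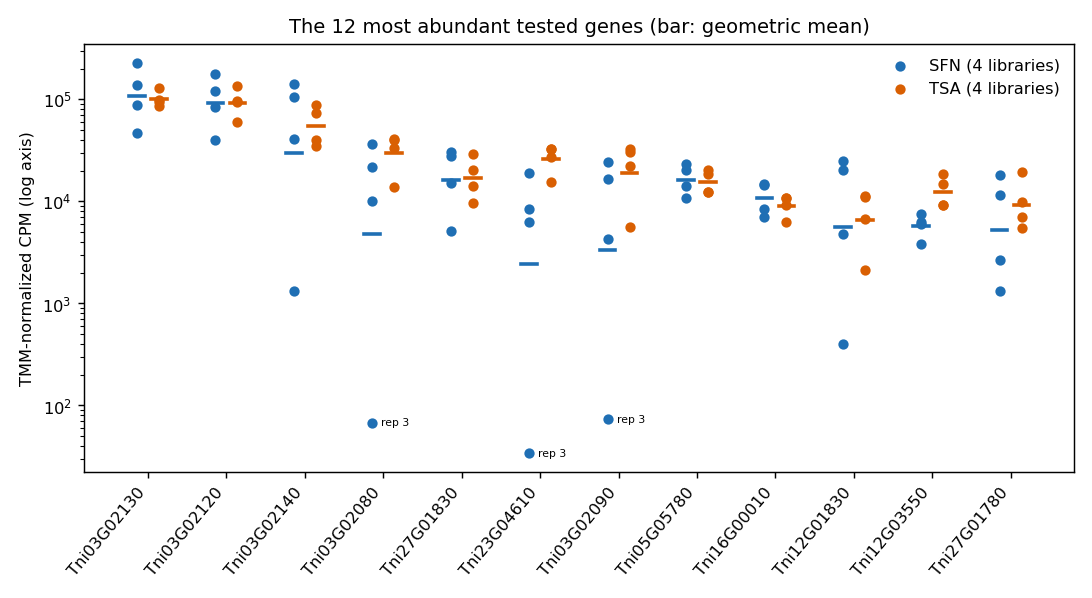
CPM (log axis) of the 12 most abundant tested genes in the SFN (blue) and TSA (orange) libraries, with bars for geometric means and replicate labels on points under 200 CPM. In 3 genes SFN replicate 3 alone falls under 200 CPM (34.3 to 73.2 CPM), and in Tni03G02140 it also lies far below the rest (1340 CPM). Only Tni12G03550 shows no overlap between the inhibitors.

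The steepest differences between libraries did not follow the inhibitor. In 98 tested genes (2.21%) the lowest and the highest of the 8 libraries differed by 256-fold or more. Each library was called low or high by the midpoint between these extremes on the log2 scale, which gave 35 patterns. In 1 gene, Tni05G00200, all SFN libraries were low and all TSA libraries high. These genes and patterns were chosen from their values and carry no test.

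The largest group held 31 genes that were low in SFN replicate 1, TSA replicate 1 and TSA replicate 3 and high in the other 5 libraries. Their median level was 0.388 CPM, 0.309 CPM and 0 CPM in these 3 libraries. It was 271, 277 and 412 CPM in SFN replicates 2, 3 and 4 and 69.3 and 755 CPM in TSA replicates 2 and 4. Some libraries of each inhibitor thus had these transcripts in quantity and others hardly at all, and in 25 of the 31 genes every control library was under 10 CPM. The most abundant was Tni12G00480, at 9.85, 10931, 7994 and 16834 CPM in SFN replicates 1 to 4 and 8.21, 6184, 0.234 and 25037 CPM in TSA replicates 1 to 4. It opens a run of 5 consecutive identifiers, Tni12G00480 to Tni12G00520, that were all in the group, and 12 of the 31 genes had a neighbour in the table that was a member.

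Another 11 genes were low in SFN replicate 3, TSA replicate 2 and TSA replicate 4. Their median level was 110, 18.9, 4.87 and 85.6 CPM in SFN replicates 1 to 4 and 11.0, 0.105, 402 and 0.185 CPM in TSA replicates 1 to 4. TSA replicate 3 was 1.97 to 3.66 times SFN replicate 1 in every one of them, and SFN replicate 2 was 0.0911 to 0.189 times SFN replicate 1. The controls were less even, since control replicate 2 held 1.39 CPM of Tni16G03860 and 373 CPM of Tni16G01930 while control replicate 1 held 118 and 145 CPM. Tni16G03860, with 248, 25.4, 9.10 and 201 CPM under SFN and 38.8, 0.0525, 573 and 0.0618 CPM under TSA, had the third largest fitted log2 fold change of all genes higher under SFN, 4.69 ± 3.47 (SE). Its mean CPM was nevertheless lower under SFN (121 ± 122) than under TSA (153 ± 281; SD, n = 4 each), and its fitted log2 fold change was -0.34 without the replicate block. The controls held a median of 25.3 to 56.3 CPM for these genes.

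A group of 5 genes had much the same order of libraries and were far higher in the controls. Their median level was 47.7, 69.5, 0.362 and 4.13 CPM in SFN replicates 1 to 4 and 0.309, 0.105, 0.328 and 4.88 CPM in TSA replicates 1 to 4. Levels were high in SFN replicates 1 and 2, while both replicates 4 were intermediate and the rest near 0. SFN replicate 2 was 1.33 to 1.60 times SFN replicate 1 in each gene, and TSA replicate 4 was 0.989 to 1.27 times SFN replicate 4. In the libraries near 0 the ratios were wider, with TSA replicate 4 between 9.15 and 50.0 times TSA replicate 2. The control libraries stood at medians of 509, 553 and 1889 CPM, above every treated library. Tni15G06480 was the highest of them, at 161, 239, 0.966 and 16.0 CPM under SFN, 1.11, 0.840, 0.703 and 15.8 CPM under TSA and 1772, 1892 and 7712 CPM in the controls. Tni31G00820, in which both replicates 4 fell just under the midpoint, showed much the same order at 37.4, 58.3, 0.362 and 3.28 CPM under SFN and 0.247, 0.158, 0.0937 and 2.90 CPM under TSA.

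Smaller groups were set by 1 library or a pair. TSA replicate 4 alone was high in 5 genes, with a median of 566 CPM beside medians of 0.0775 to 0.688 CPM in the other 7 libraries. Tni08G01410 was 1 of them, at 99.9 CPM in TSA replicate 4 and 0.0525 to 0.422 CPM in the other treated libraries, which gave a log2 fold change of -4.24 ± 2.2 (SE). SFN replicate 1 alone was high in 3 genes (median 312 CPM), SFN replicate 3 alone was low in 4 genes, and SFN replicate 2 and TSA replicate 4 were low together in 4 genes. Tni22G04710 had the largest fitted log2 fold change of the genes higher under SFN, 5.87 ± 1.43 (SE; edgeR adjusted p = 1.00), at 0.465, 1026, 118 and 929 CPM under SFN and 0.185, 7.56, 0.187 and 45.2 CPM under TSA. SFN replicate 1 was as low as the low TSA libraries there, and the groups overlapped.

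**Figure D5:**
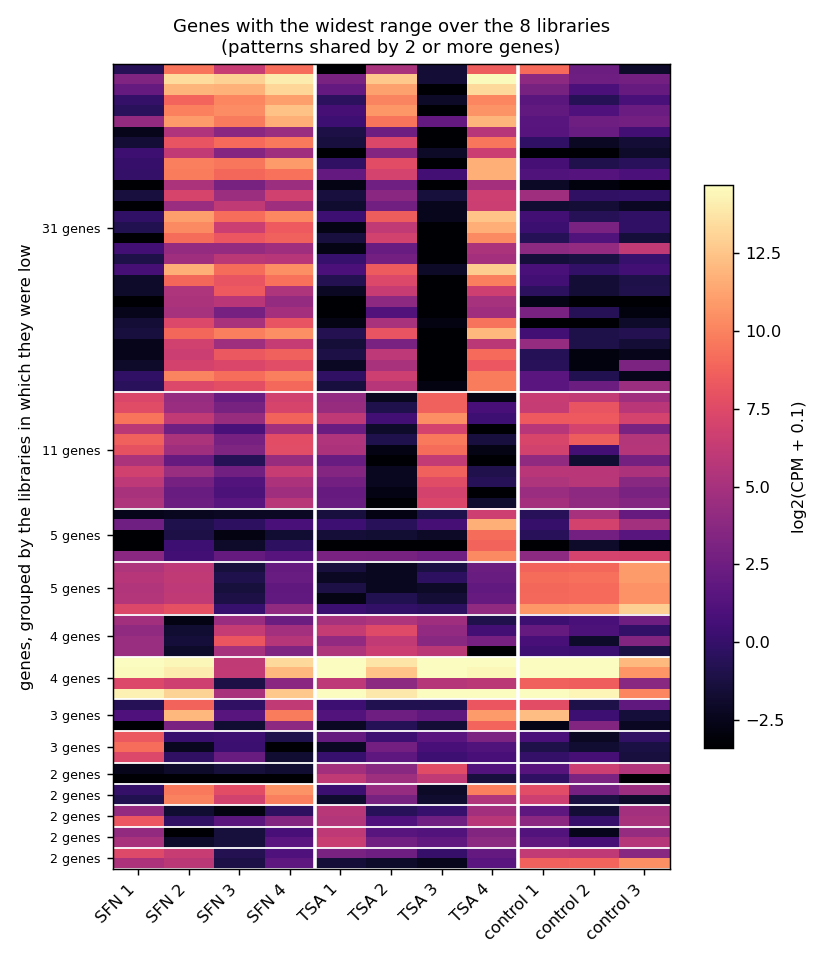
Log2 of CPM plus 0.1 in the SFN, TSA and control libraries (columns) for the tested genes whose 8 treated libraries span 256-fold or more (rows), grouped by the libraries in which they were low; patterns shared by at least 2 genes are drawn. The block of 31 genes is dark in SFN replicate 1, TSA replicate 1, TSA replicate 3 and most control cells, and no block with 2 genes or more is dark throughout SFN and bright throughout TSA.

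A few genes were well enough measured to bound the difference closely. Among genes with a mean CPM over 100, the 95% interval was narrowest in Tni03G01410, which stood at 109, 99.7, 106 and 104 CPM in SFN replicates 1 to 4 and at 99.0, 96.3, 95 and 98.2 CPM in TSA replicates 1 to 4. All SFN libraries were slightly higher, by a log2 fold change of 0.10 (95% interval -0.45 to 0.66). Tni30G02710 stood at 132 to 184 CPM under SFN and at 140 to 167 CPM under TSA, with an interval of -0.59 to 0.55. Tni15G05400 stood at 87.3, 130, 145 and 204 CPM under SFN and at 49.3, 62.3, 70.1 and 107 CPM under TSA. Each SFN library was above the TSA library of the same number, the groups overlapped, and the interval was 0.40 to 1.53 (edgeR adjusted p = 1.00).

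By fitted change and unadjusted p, genes of lower level leaned to SFN more than the tested genes did, but not by lack of overlap. Among 3958 genes with a mean CPM between 1 and 10, a 2-fold difference or more was fitted for 588 higher under SFN and 171 higher under TSA, and one of 16-fold or more for 95 and 4. At an unadjusted p under 0.05 there were 149 and 62 genes, and 0 were called among the 8393 genes above 1 CPM (lowest edgeR adjusted p = 0.486). Their median level was 4.34, 4.42, 3.10 and 3.12 CPM in SFN replicates 1 to 4 and 3.21, 2.78, 2.95 and 4.02 CPM in TSA replicates 1 to 4. SFN replicates 1 and 2 were thus high with TSA replicate 4, while SFN replicates 3 and 4 lay among the TSA libraries. The first-named pair was above all other 6 libraries in 673 of these genes (17.0%), beside 11.2% of the tested genes. The controls had medians of 4.22, 5.29 and 6.02 CPM. All SFN libraries lay above all TSA libraries in 31 of the 3958 genes, and the reverse held in 50. Among the 4435 tested genes these counts were 42 and 53.

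Detection under 1 inhibitor only was rare. Of 7975 genes at 1 CPM or more in at least 4 libraries, 4 reached 1 CPM in all SFN libraries and in no TSA library, and 5 did so in all TSA libraries and in no SFN library (0.113% together). Tni29G00780 was the most abundant of the former, at 5.21, 9.74, 1.92 and 1.15 CPM under SFN and 0.189 to 0.908 CPM under TSA on the scale of library totals. Of the latter, 1 (Tni08G04760) was abundant enough to be tested. The others averaged 1.38 to 4.51 CPM in the inhibitor in which they were detected, close to the limit of 1 CPM.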

How the data were processed

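RNA-seq counts per gene from *T*. *ni* fat body were used as the authors deposited them. Per the labels, reads were trimmed with Trimmomatic 0.39, aligned with HISAT2 2.2.1 and counted with featureCounts. The deposited counts are raw and not normalized. The table of normalized values was not used, 0 columns belonged to no mapped sample, and the genome annotation was not used here. Strand settings of the counting are not given in the sources used here, so that overlapping genes cannot be told apart.

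Counts of the 4 SFN and 4 TSA libraries were scaled by TMM and fitted in R 4.3.3 with edgeR 4.0.16 (quasi-likelihood test, two-sided, treatment and replicate number as a block, Benjamini-Hochberg adjustment over all 4435 genes with a mean CPM over 10, threshold 0.05). The block is a reading of the study's methods, which speak of pairing without giving the terms of the model. Log2 CPM used a prior count of 2. Standard errors came from the log2 fold change and the F statistic, which gave none for 1 gene. CPM are TMM-scaled unless stated, and control libraries were scaled with the others for display only. Single values per library were compared by exact permutation tests. The closest pair of libraries, TSA replicates 2 and 3, did not agree within sampling noise (chi-square 560.5 per degree of freedom). The other pairs were not compared with it. The fit was tested on simulated data with 200 changed genes.

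Genes were named by a rule. It took the 5 lowest p in each direction, the 4 largest differences in mean log2 CPM in each direction among genes without overlap, the 6 most abundant genes, the 3 largest fitted changes in each direction, and the 3 narrowest intervals above a mean of 100 CPM. The genes in groups of steep patterns, Tni03G02090, Tni12G03550 and Tni29G00780 fall outside it and were chosen after their values were seen. Genes and lists were chosen with earlier results of these data known. The lists of pathways and tissue markers could not be applied, because 0 identifiers matched names. Alternatives were other scalings, filters, tests (likelihood ratio, DESeq2 1.42.0), no replicate block, the series of library codes as a block, all 11 libraries in the fit, and each library left out. The other tests and the filter at 1 CPM without the block, the share of variance, the principal component, the order of libraries, the steep patterns and the genes of lower level were added after seeing the data. Figures were drawn with matplotlib 3.10.9.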

Additional observations from a re-analysis of the deposited data

Results flagged for a closer look

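In 4 of 67 groups of 4 libraries examined, 1 library lay far from the other 3 by Dixon's test, and chance flags about 1 in 20. SFN replicate 3 was high in Tni11G02000 (log2 CPM 5.85), and TSA replicate 1 was high in Tni01G01720 (6.05). TSA replicate 1 was low in Tni27G01820 (8.76), where the TSA libraries as a whole were within a narrow range, and TSA replicate 3 was low in Tni09G01000 (1.45). All of these genes had SFN and TSA libraries that did not overlap.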

How the results depend on the processing

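The count of 0 called genes held in edgeR's quasi-likelihood test under every scaling and filter tried and without each library in turn (lowest and highest 0). It did not hold under other tests, with 14 calls in the likelihood ratio test and 46 from DESeq2, and 9 and 27 respectively without the replicate block. The genes at an unadjusted p under 0.05 (175) became 383 above 1 CPM, 605 with no filter, 52 above 50 CPM, 330 in DESeq2 (367 without the block), 645 above 1 CPM without the block, 263 with all 11 libraries and 265 in the first series of library codes, and ranged from 101 to 269 with 1 library left out. The share of them higher under SFN was 46.9%, and 59.0% above 1 CPM, 68.3% with no filter, 36.5% above 50 CPM and 73% with all 11 libraries. Genes past 2-fold (273) became 1039 above 1 CPM (1067 without the block), 3623 with no filter, 99 above 50 CPM, 990 with all 11 libraries, 415 in the first series and 284 to 421 with 1 library left out. Genes without overlap (95) became 176, 35 and 521 above 1 CPM, above 50 CPM and in the first series, and 122 to 381 with 1 library left out, where fewer libraries overlap less. Beyond what the construction of a filter or a smaller set gives, the cause was not tested.

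The replicate numbers did not pair all of the libraries. Deviations of SFN and TSA libraries of the same number correlated at 0.66, -0.12, -0.07 and 0.25 for replicates 1 to 4. Of the 4 SFN libraries, replicates 1 and 4 correlated best with their own number. With no replicate block 0 genes were called and 207 had an unadjusted p under 0.05. Of the 28 named genes, 23 kept their sign under all settings that left no library out, and 5 changed sign with 1 library left out (6 under either). The fitted change of Tni16G03860 (4.69) turned to -0.34 with no block, also in the likelihood ratio test and in DESeq2, to -0.42 above 1 CPM without the block and to -0.12 with the series of library codes as the block. At 10 CPM a library gave 172 to 235 counts, and over all tested genes the 95% interval reached a median of 1.70-fold to each side. By quartile of mean log2 CPM, from lowest to highest, the median standard error was 0.331, 0.290, 0.295 and 0.327. It was thus about as large at the highest levels as at the lowest.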
